A study of Salmo salar with 13 samples.

Results

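The 159 ribosomal protein transcripts measured in the saccus vasculosus of Atlantic salmon came from 136 genes and 74 protein families, out of 146780 transcripts quantified. They were taken from the study's list of expressed transcripts. Members had a salmon, zebrafish or mouse gene name that starts with rpl or rps and a digit, or is rpsa, rplp0, rplp1 or rplp2. The rps6k kinases were left out. The copy of the study's list used here was shortened to 1119 abundant transcripts, whereas the full list reaches weakly expressed ones. Weakly expressed ribosomal protein genes were thus not among the members, and the members' abundance was part of the selection. The large (60S) subunit gave 91 transcripts of 44 families and the small (40S) subunit 68 transcripts of 30 families. Of 79 families that make up the cytosolic ribosome, 73 had a member and 6 had none under these names, and the 74th family was rpl22l1, a paralogue of rpl22. A protein-coding RefSeq gene of the same assembly (Ssal_v3.1) lay over the locus of 152 of the 159 transcripts. This overlap does not check the names, as many of these RefSeq genes carry only a LOC number.

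The saccus vasculosus is a vascular, folded organ behind the pituitary of fishes, connected to the third ventricle. RNA was sequenced from 13 single organs of Aquagen-strain parr that had been raised in freshwater under constant light to 11 months of age. The SPLL fish had 8 weeks of short photoperiod (SP, 8 h of light per day) followed by 8 weeks of constant light (LL), the treatment that makes parr into smolts, and were collected either after 24 h in full-strength seawater (SPLL SW, 34 ‰, n = 4) or in freshwater (SPLL FW, n = 2). The SP-hold fish were kept for all 16 weeks on the short photoperiod and were likewise collected after 24 h in seawater (SP-hold SW, n = 3) or in freshwater (SP-hold FW, n = 4). Because lights stayed on over the seawater tank, transfer of SP-hold fish altered light as well as salinity, and the effects of the pair cannot be told apart. The fish came from duplicate tanks, 2 fish per tank and collection, so that some libraries of the groups of 3 and 4 share a tank; the labels do not say which, and sex was not determined.

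Ribosomes are built from a large and a small subunit, each a core of ribosomal RNA. It carries many small, mostly basic proteins, most of them present in single copies. Cells coordinate the output of the ribosomal protein genes because the subunits need most of their proteins in equal numbers. The mRNAs start with a pyrimidine tract that ties their translation to growth signals. Salmonid ancestors duplicated their whole genome, so that many salmon genes, these included, occur as pairs on different chromosomes.

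Libraries held 15346418 to 26502552 reads assigned to transcripts. Transcript levels are given in TPM (an abundance corrected for length and scaled to the same total in each library) where transcripts are compared with each other, and in TMM-normalised CPM (reads scaled to library size, not corrected for length) where groups are compared. In the SPLL SW group, replicate 3 stood apart: reads fell on 54196 transcripts in it, against 62912 to 70193 in the other 12 libraries. It also had the highest share of hemoglobin transcripts (15 red cell markers, 11.4% of TPM, against 2.73 to 9.58% elsewhere), so the comparisons between groups are given with and without it. The tissue markers ependymin (epd) and parvalbumin (prvt) held 6.12 to 11.5% of TPM in every library. Growth hormone, a marker of the neighbouring pituitary, held 0.000141 to 0.0411% in SPLL libraries and 0.000285 to 0.0019% in SP-hold libraries, which overlap.

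Ribosomal protein mRNAs were a large part of this transcriptome. The 159 transcripts held 11.5 ± 2.01% of all TPM (SD, n = 13), but only 3.65 ± 0.839% of assigned reads; 123 of them are shorter than 1000 bases. None of them was among the 10 most abundant transcripts. By mean TPM, 7 were among the first 50, 33 among the first 100, 89 among the first 200 and 149 among the first 500. The mean level of a member ran between 55.9 and 3323 TPM with a median of 601 TPM, and 36 members were at 1000 TPM or more. Weakly expressed transcripts could not be members. The lowest level, the median and the share of members at high ranks thus follow in part from the selection.

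By library, the share of TPM was 11.5, 10.9, 16.8 and 12.8% in SPLL SW, 11.7 and 11.9% in SPLL FW, 9.37, 9.45 and 9.84% in SP-hold SW, and 9.88, 11.5, 13.3 and 10.4% in SP-hold FW. The 3 SP-hold SW values were the lowest of all libraries, below every SP-hold FW value by a small margin and below every SPLL SW value, and the highest value was that of SPLL SW replicate 3. The group means were 13.0 ± 2.64% in SPLL SW (n = 4, or 11.7% without replicate 3), 11.8 ± 0.134% in SPLL FW (n = 2), 9.56 ± 0.254% in SP-hold SW (n = 3) and 11.3 ± 1.52% in SP-hold FW (SD, n = 4). In whole-organ samples, fewer cells rich in these mRNAs and less of the mRNA per cell cannot be told apart. With the hemoglobins and ependymin taken out of the total, the group means were 15.4, 13.6, 10.6 and 12.7% in the same order, with 13.7% in SPLL SW without replicate 3. By assigned reads SPLL SW had 4.07% with replicate 3 and 3.46% without it, SPLL FW 4.00%, SP-hold SW 2.87% and SP-hold FW 3.62%.

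**Figure D1:**
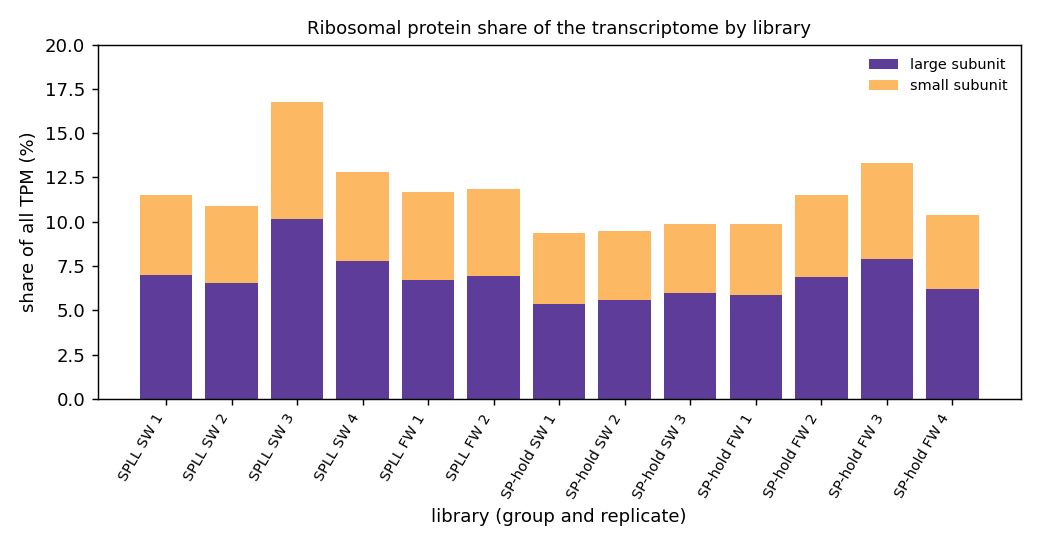
Share of all TPM (%, y axis) held by the large-subunit and small-subunit ribosomal protein transcripts in each of the 13 libraries (x axis), stacked. The 3 SP-hold SW libraries lie at 9.37 to 9.84%, and SPLL SW replicate 3 reaches 16.8%.

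The balance of the subunits moved little. TPM summed over the large-subunit transcripts was 1.34 to 1.55 times that of the small-subunit transcripts in all 13 libraries, with a mean of 1.47 ± 0.0704 (SD, n = 13). The group means of this ratio were 1.53 ± 0.0273 in SPLL SW, 1.38 ± 0.0445 in SPLL FW, 1.44 ± 0.0992 in SP-hold SW and 1.48 ± 0.0214 in SP-hold FW. All 4 SPLL SW libraries (1.49 to 1.55) lay above both SPLL FW libraries (1.35 and 1.41). A single short large-subunit transcript, of rpl39, had a mean of 5858 TPM in SPLL SW against 1470 TPM in SPLL FW. Its part in the ratio was not tested.

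Summed over their copies among the members, the 74 families differed 37.0-fold in mean level, although most of their proteins are needed in equal numbers. The most abundant was rpl27 at 4935 ± 1079 TPM (SD, n = 13 here and below), followed by rpl39 (3683 ± 2235), rpl34 (3659 ± 993) and rps9 (3349 ± 964). The least abundant were rps12 at 134 ± 48.5 TPM, rps26 at 313 ± 70.6 TPM and the paralogue rpl22l1 at 354 ± 84.4 TPM. The median family lay at 1411 TPM. The rpl27 loci carry the older salmon name RL17 in the list used, and their mouse and zebrafish names, by which they are grouped here, are rpl27.

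Single transcripts at the top were mostly very short. Among the 10 with the highest mean TPM were, in order, transcripts of rpl39, rpl27, rpl34, rpl30, rpl12, rps29, rps9, rpl35 and rpl23a. The rpl39 transcript, of 289 bases, had 3323 TPM and rank 28 among all transcripts, rpl27 (347 bases) had 3321 TPM, rpl34 3030 TPM and rpl30 (437 bases) 2727 TPM. The length correction is largest for such transcripts: with reads of 100 bases and transcripts as short as 208 bases, few reads gave a high TPM, as in the 208-base rps29 transcript with 299 reads per library on average and 1907 TPM.

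For 14 families with roles outside the ribosome, or with a special place on it, the level of the most abundant transcript is given. It was above the members' median in 10 and at 1000 TPM or more in 5. That median includes lesser copies and minor transcripts of every family. The counts therefore do not show whether such families are more abundant than others. Among proteins of the stalk, where elongation factors dock, the most abundant transcripts were those of rplp1 (1483 ± 404.3 TPM), rplp0 (1016 ± 153 TPM) and rplp2 (270 ± 43.7 TPM). RPL5 and RPL11 bind 5S RNA and, in mammals, restrain Mdm2 when ribosome assembly is disturbed. Their most abundant transcripts had 832 ± 91.9 TPM (rpl5) and 664 ± 186 TPM (rpl11). The transcript of rps6, whose protein is phosphorylated by S6 kinases downstream of mTOR, had 935 ± 109 TPM, and that of rps27a, whose product is a fusion with ubiquitin, had 1143 ± 174 TPM. Transcripts of rps19 and rps14, which are needed to mature the small subunit, had 1161 ± 286 and 786 ± 104 TPM. Those of rpl10, at the heart of the large subunit, rps3, at the mRNA entry channel, rps4x and rpsa had 1105 ± 181, 518 ± 122, 608 ± 114 and 563 ± 136 TPM.

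The steadiest members were 2 transcripts of rpl7a, 2 of rpl5 and 1 of rpl6, all in the large subunit. Coefficients of variation (CV, SD as a percentage of the mean TPM over the 13 libraries) ran from 7.83 to 67.2% with a median of 20.2%. The rpl7a transcript ENSSSAT00000124877 had the lowest CV (7.83%), with 981, 1086, 1054 and 1246 TPM in SPLL SW, 1099 and 1085 TPM in SPLL FW, 979, 1164 and 942 TPM in SP-hold SW, and 1035, 1065, 1095 and 981 TPM in SP-hold FW. SPLL SW replicate 3 did not stand out in TPM, although in normalised CPM it was the highest library (390 CPM). The other 4 were rpl5 on chromosome 23 (CV 8.85%), a second rpl7a transcript (9.92%), rpl6 on chromosome 20 (10.0%) and rpl5 on chromosome 10 (11.0%).

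Among the most variable members were short transcripts of rpl39 (CV 67.2%), rps9 (58.7%), rps29 (58.5%) and rpl37 (52.6%). Spread fell with length across the members: the median CV was 38.3% for the 13 transcripts under 400 bases, 25.6% for the 40 of 400 to under 600 bases, 19.1% for the 70 of 600 to under 1000 bases and 17.3% for the 36 of 1000 bases or more.

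In 54 of the 74 families more than 1 locus had a member: 47 families had 2 such loci, 6 had 3, and rps3 had 4. Copies too weakly expressed to be members were not counted, so loci and family TPM are those of the members. Both loci lay on chromosomes in 45 of the 2-locus families, and never on the same chromosome. They fell on 23 pairs of chromosomes, 13 of which were shared by at least 2 families, and these 13 held 35 families. Chromosomes 3 and 6 together carried the copies of 6 families, among them rpl3, rpl19, rpl23, rpl27 and rps2, and chromosomes 14 and 27 those of 4, among them rpl11, rpl14 and rpl15. In neither pair did 1 chromosome hold the more abundant copy throughout: it was on chromosome 6 in 4 families and on chromosome 3 in 2, and it was on chromosome 14 in 2 and on chromosome 27 in 2.

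By TPM, the copies of a family were expressed unequally, and mostly in the same order in every fish. In mean levels over the 13 libraries, the most abundant locus gave 38.3 to 86.2% of its family's TPM, with a median of 64.1%. It was the most abundant locus in all 13 libraries in 40 of the 54 families. Ranking the families by this share, among the most unequal were rpl32 (85.5%), rpl10a (84.8%) and rpl35 (84.0%). The lowest shares included those of rps3 (38.3%, 4 loci), rps27 (47.1%, 3 loci) and rpl8 (50.6%, 2 loci). A low share in a family of 3 or 4 loci does not mean equal copies. The rps3 loci had 586, 518, 279 and 149 TPM and the rps27 loci 492, 324 and 227 TPM, whereas the rpl8 loci had 773 and 753 TPM. These shares depend on length correction: by assigned reads the median was 55.1%, the rpl32 share 59.3% and the rpl35 share 48.9%. In rpl35, a family of 2 loci, the other locus thus had more reads. How often the order of copies held by reads was not counted. Copies with near-identical sequence share reads, so the split between them is less certain than the family's sum.

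**Figure D2:**
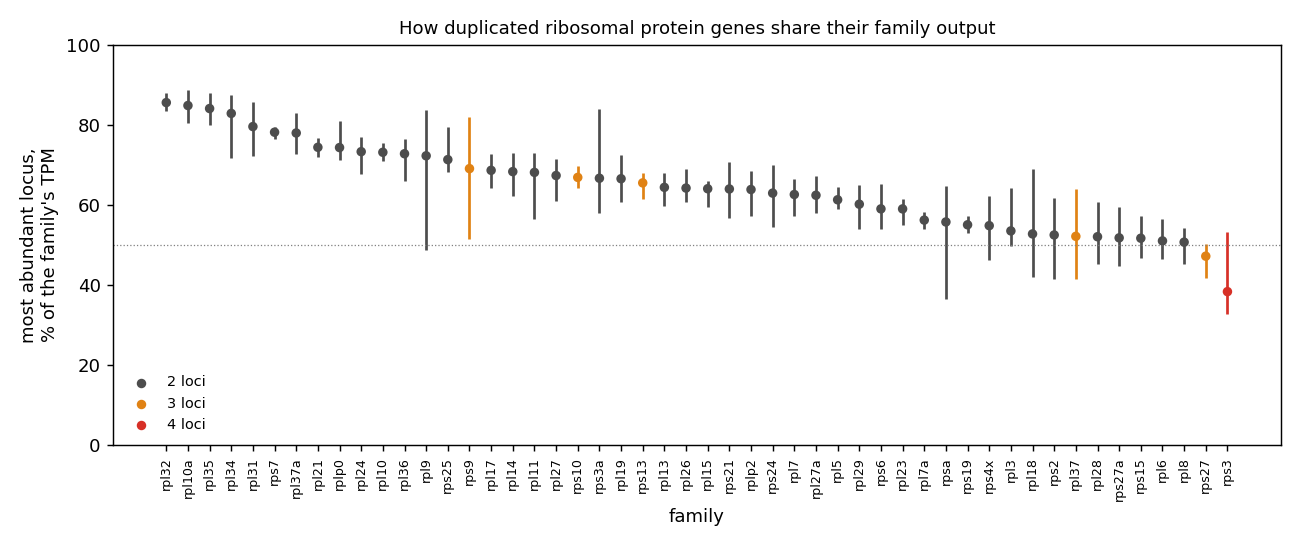
Share of a family's TPM (%, y axis) given by its most abundant locus in 50 of the 54 families with 2 to 4 loci (x axis), in mean levels (point) with the range over 13 libraries (line). The points run from 85.5% in rpl32 to 38.3% in rps3, and long lines mark families such as rpl9, rps9 and rps3a in which the split varied between libraries.

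The split varied with group in rps3a, a small-subunit protein at the mRNA exit side. Its copy on chromosome 8 had 1243 ± 171 TPM, and the one on chromosome 4 (RefSeq symbol rs3a, 15354985 to 15359154) had 623 ± 220 TPM (SD, n = 13). The chromosome 8 copy gave 65.8, 58.9, 63.2 and 64.2% of the family in SPLL SW, 83.8 and 80.4% in SPLL FW, 67.3, 62.6 and 58.0% in SP-hold SW, and 64.5, 66.2, 69.8 and 72.4% in SP-hold FW. The SPLL FW libraries had the highest 2 values of all 13. This came from the chromosome 4 copy, which had 698, 886, 933 and 798 TPM in SPLL SW against 233 and 279 TPM in SPLL FW, with no overlap, and 466, 724 and 827 TPM in SP-hold SW against 570, 618, 612 and 453 TPM in SP-hold FW, which overlap. This copy was singled out after its values were seen. Its log2 fold change for SPLL SW over SPLL FW was 1.51 ± 0.41 (SE) and did not pass the test (adjusted p = 0.176, edgeR quasi-likelihood test with Benjamini-Hochberg adjustment over 46383 transcripts), with DESeq2 giving an adjusted p of 0.00414 and limma on TPM 0.0490.

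At 23 loci 2 transcripts of the same gene were members, and the shorter gave a median of 65.3% of the locus' TPM. The division ranged over more than 30 percentage points between libraries at 7 of them and over less than 10 at 3. It was steady in the chromosome 11 rpl7a locus, where the 609-base transcript gave 82.8 to 86.7%, and in the chromosome 2 rps19 locus, where the 452-base transcript gave 91.8 to 95.4%. In rpl39, the shorter transcript (289 bases) gave 94.4% of the locus' TPM in SPLL SW on average, 70.9% in SPLL FW, 84.0% in SP-hold SW and 89.7% in SP-hold FW. In rps29, the 208-base transcript gave 50.6% in SPLL SW, 77.1% in SPLL FW, 71.1% in SP-hold SW and 59.6% in SP-hold FW.

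The design asks whether 24 h in seawater, and photoperiod history, changed these mRNAs. Each of the 159 members passed the low-count filter and was tested among 46383 transcripts. In normalised CPM they differed, as a set, between libraries more than between groups. Relative to each transcript's own mean log2 CPM, the median member stood at +0.06, -0.40, +1.05 and -0.12 in SPLL SW, +0.24 and +0.40 in SPLL FW, -0.75, -0.02 and -0.53 in SP-hold SW, and -0.28, -0.06, +0.25 and +0.21 in SP-hold FW. In SPLL SW replicate 3, 158 of the 159 members were above their own means, and in SP-hold SW replicate 1, 157 were below. The SD of these library medians within groups was 0.43 on the log2 scale, and the medians of large-subunit and small-subunit members had the same sign in every library. In log2(TPM + 1), which is corrected for length, the SP-hold SW medians lay closer together, at -0.20, -0.22 and -0.15. SPLL SW then had -0.03, -0.12, +0.45 and +0.16, and SPLL FW +0.04 and +0.06. SP-hold FW had -0.16, +0.06, +0.24 and -0.11. In SP-hold SW replicate 1, 123 members were below their own means on that scale.

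**Figure D3:**
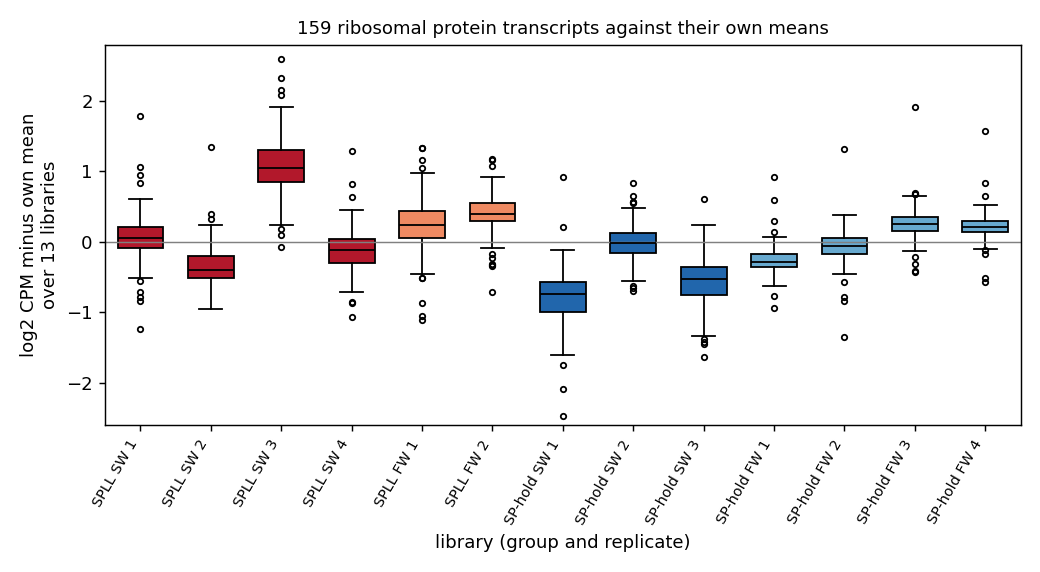
Log2 CPM of each of the 159 transcripts minus its own mean over the 13 libraries (y axis, log2 units), as 1 box per library (x axis). Box, quartiles and median; whiskers, 1.5 times the interquartile range; the axis leaves out 2 values. The box of SPLL SW replicate 3 centres on +1.05, that of SP-hold SW replicate 1 on -0.75.

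Across all 4 groups, no member passed the threshold (adjusted p under 0.01, edgeR quasi-likelihood test), against 0.0625% of all transcripts tested. At an unadjusted p under 0.05 the count was 26 of 159, beside 16.4% of all tested. DESeq2 called 4 members, against 7.43% of all tested. Single libraries decided the count at an unadjusted p. It was 88 without SPLL SW replicate 3 (19.5% of all tested) and 48 without SPLL SW replicate 2 (15.7%). It was 9 without SP-hold SW replicate 1 (12.4%) or 3 (12.9%).

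In SP-hold fish, almost every ribosomal protein transcript was lower after seawater transfer, by a small amount. In no single member could edgeR, after adjustment, separate this change from the spread between fish. The fitted log2 fold change, SP-hold SW over SP-hold FW, was below 0 for 153 of 159 members (50.5% of all transcripts tested), and the members' median was -0.47, beside -0.01 over all tested. No member was called at an adjusted p under 0.05 (edgeR), against 0.0841% of all tested (0.0345% higher and 0.0496% lower). At an unadjusted p under 0.05, 13 were lower and 1 higher, against 9.59% of all tested (5.21% lower and 4.38% higher), and DESeq2 called 1 member, against 2.95% of all tested. The count at an unadjusted p rested on single libraries. It was 69 (68 lower) without SPLL SW replicate 3, against 12.9% of all tested. That library is in neither group here, and leaving it out changes the estimate of spread that all groups share. The count was 41 (all lower, 10.4% of all tested) without SP-hold SW replicate 2. It was 2 without SP-hold SW replicate 1 (6.48%) or 3 (7.99%). It was 4 without SP-hold FW replicate 3 (7.5%) and 3 without SP-hold FW replicate 4 (8.09%). The values of all SP-hold SW libraries lay below all SP-hold FW libraries for 21 members and above them for 1, against 7.04% and 7.72% of all tested. The large-subunit median was -0.45 and the small-subunit median -0.51.

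Length moved with this result. Transcripts other than the members shorter than 1000 bases had a median log2 fold change of -0.25 in SP-hold SW over SP-hold FW, and longer ones 0.00. The 89 of these shorter transcripts with a mean of at least 100 CPM had a median of -0.44 with 83.1% below 0, beside -0.48 for members under 1000 bases. Within the members, the medians ran -0.68, -0.53, -0.44 and -0.35 through the 4 length classes from under 400 to 1000 bases or more. With a length correction within each library, the members' median was -0.24. Transcripts under 1000 bases held 8.71, 13.3 and 9.70% of reads in SP-hold SW and 12.2, 11.7, 12.6 and 15.02% in SP-hold FW. Red cell markers moved the same way: 14 of the 15 hemoglobin transcripts were below 0, with a median of -0.66. The part of length and red cells in the members' shift was not tested.

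The lowest p in that comparison belonged to an rps15 transcript. RPS15, a small-subunit head protein needed for export of the precursor subunit from the nucleus, had its shorter transcript from the chromosome 14 locus (ENSSSAT00000189825, 464 bases) at 48.1, 56.7 and 35.0 CPM in SP-hold SW against 72.2, 74.9, 112.6 and 85.3 CPM in SP-hold FW. The groups do not overlap, and the log2 fold change was -0.89 ± 0.21 (SE, adjusted p = 0.205 by edgeR). DESeq2 gave an adjusted p of 0.00660 for the same transcript. Its levels were 69.6, 51.1, 66.0 and 47.9 CPM in SPLL SW against 117 and 126 CPM in SPLL FW, also without overlap (log2 fold change -1.05 ± 0.23, adjusted p = 0.106 by edgeR). The transcript was singled out after its values were seen.

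In SPLL fish the seawater effect depended on 1 library. With all libraries, 88 of 159 members were below 0 in SPLL SW over SPLL FW (49.5% of all tested), the median was -0.08 beside 0.01 over all tested, and no member was called by edgeR, against 0.269% of all tested (0.0798% lower). At an unadjusted p under 0.05, 3 were lower and 2 higher, against 10.5% of all tested (4.33% and 6.17%), and DESeq2 called 2 higher and 2 lower, against 4.93% of all tested. Leaving out replicate 2 of SPLL SW gave 8 at an unadjusted p, against 10% of all tested. Groups did not overlap for 5 members higher and 3 lower in SPLL SW, against 10.6% and 11.9% of all tested. Without SPLL SW replicate 3, 142 members were below 0 (49.0% of all tested), the median was -0.49, and 6 members were called, all lower, against 0.384% of all tested that were lower. By unadjusted p under 0.05, 60 were then lower and 2 higher, against 6.47% and 7.79% of all tested. The hemoglobin transcripts had a median of 0.82, and 0.23 without that library; their part in the result was not tested.

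The 6 transcripts called lower without that library came from rps2 (2 transcripts), rpl15 (2), rplp0 and rps23, with log2 fold changes of -1.97 to -1.05. RPS2 lies at the mRNA entry channel, and its chromosome 6 transcript (ENSSSAT00000018919, RefSeq symbol rs2, 21266111 to 21270234) had 191, 257, 888 and 215 CPM in SPLL SW against 873 and 863 CPM in SPLL FW. Replicate 3 was at the level of the freshwater fish and the other 3 seawater libraries were far below it. The log2 fold change was -1.97 ± 0.25 (SE) without replicate 3 (adjusted p = 0.00918, edgeR) and -1.16 ± 0.53 with it (adjusted p = 0.487). SP-hold fish had 348, 633 and 427 CPM in SW against 434, 433, 614 and 454 CPM in FW, which overlap. The interaction of photoperiod and seawater for this transcript, without replicate 3, was -1.93 ± 0.32 (adjusted p = 0.0361, edgeR).

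The large-subunit protein RPL15 had a like order of values in its chromosome 14 transcript (ENSSSAT00000090724), with 137, 150, 412 and 136 CPM in SPLL SW against 368 and 376 CPM in SPLL FW. Its log2 fold change was -1.40 ± 0.18 without replicate 3 (adjusted p = 0.0104, edgeR) and -0.84 ± 0.41 with it (adjusted p = 0.526). The chromosome 22 rplp0 transcript ENSSSAT00000110661, for the base of the stalk, had 68.5, 65.7, 92.1 and 58.5 CPM in SPLL SW against 139 and 130 CPM in SPLL FW, so that here replicate 3 lay with its group. It had the lowest p of all members in this comparison with every library in the fit (log2 fold change -0.92 ± 0.19, adjusted p = 0.0995, edgeR). These genes were singled out after their values were seen, and the SPLL FW group had 2 fish.

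In freshwater, SPLL fish had slightly higher levels of most members than SP-hold fish. The log2 fold change, SPLL FW over SP-hold FW, was above 0 for 136 of 159 members and below 0 for 23 (48.2% and 51.8% of all tested), with a median of 0.30 beside -0.02 over all tested. None was called at an adjusted p under 0.05 (edgeR), against 0.0906% of all tested (0.0108% higher and 0.0798% lower). Both SPLL FW libraries lay above all SP-hold FW libraries for 67 members and below them for 3, against 12.0% and 11.2% of all tested. At an unadjusted p under 0.05, 7 members were higher and none lower, against 8.66% of all tested (2.88% and 5.79%), and DESeq2 called no member, against 3.24% of all tested. The count at an unadjusted p was 33 (32 higher) without SPLL SW replicate 3, against 11.6% of all tested. That library is in neither group here, and leaving it out changes the estimate of spread that all groups share. The count was 4 (7.09% of all tested) with replicate 1 of SP-hold FW left out. With replicate 2 of that group left out it was 3 (7.61%). Other transcripts under 1000 bases had a median of 0.29, as did the 89 of them with at least 100 CPM, and with the length correction the members' median was 0.02. Glia markers held 0.567 and 0.630% of TPM in SPLL FW against 0.416, 0.495, 0.508 and 0.365% in SP-hold FW, without overlap. The tissue markers ependymin and parvalbumin held 9.36 and 11.5% against 7.45, 9.07, 8.82 and 6.12%, also without overlap. The part of these cell types in the members' difference was not tested.

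In seawater, SPLL fish had higher levels than SP-hold fish in nearly all members, and 2 transcripts passed the test. The log2 fold change, SPLL SW over SP-hold SW, was above 0 for 147 of 159 members and below 0 for 12 (48.4% and 51.6% of all tested), with a median of 0.68 beside -0.03 over all tested. The 2 called members, both higher, stood against 3.04% of all tested (1.42% higher and 1.63% lower), so their share was near the background. At an unadjusted p under 0.05, 55 members were higher and none lower, against 18.5% of all tested (9.78% and 8.73%), and DESeq2 called 32, all higher, against 11.8% of all tested called by it. All SPLL SW libraries lay above all SP-hold SW libraries for 24 members and below them for none, against 10.5% and 12.5%. The count at an unadjusted p fell to 25 when replicate 1 of SP-hold SW was dropped, against 13.3% of all tested. Dropping that group's replicate 3 gave 31 (15.6%), and dropping its replicate 2 gave 86 (18.4%). In SPLL SW, dropping replicate 2 gave 89 (19%). Dropping replicate 3 there gave 33 higher and 7 lower, against 8.96% and 9.26% of all tested.

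Several measures moved with this comparison. Without SPLL SW replicate 3 the median was 0.26, with 126 members above 0, and 3 members were called (1 higher, 2 lower), against 2.16% of all tested. Other transcripts under 1000 bases had a median of 0.45 and longer ones -0.05, and the 89 short ones with at least 100 CPM had 0.63, with 82.0% above 0. With the length correction the members' median was 0.24, and with both the correction and that library left out it was 0.0073. All 15 hemoglobin transcripts (0 called) were above 0, with a median of 1.54 (0.91 without that library), and held 9.58, 5.88, 11.4 and 4.59% of TPM in SPLL SW against 2.73, 3.60 and 4.00% in SP-hold SW. Glia markers held 0.518, 0.836, 0.740 and 0.573% of TPM in SPLL SW against 0.357, 0.363 and 0.484% in SP-hold SW. The antigen-presenting cell marker cd74 held 0.00996, 0.00982, 0.00818 and 0.0118% against 0.0157, 0.0144 and 0.0221%. Neither marker set overlaps between these groups. What part length, these cell types or that library have in the members' difference was not tested beyond these values.

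**Figure D4:**
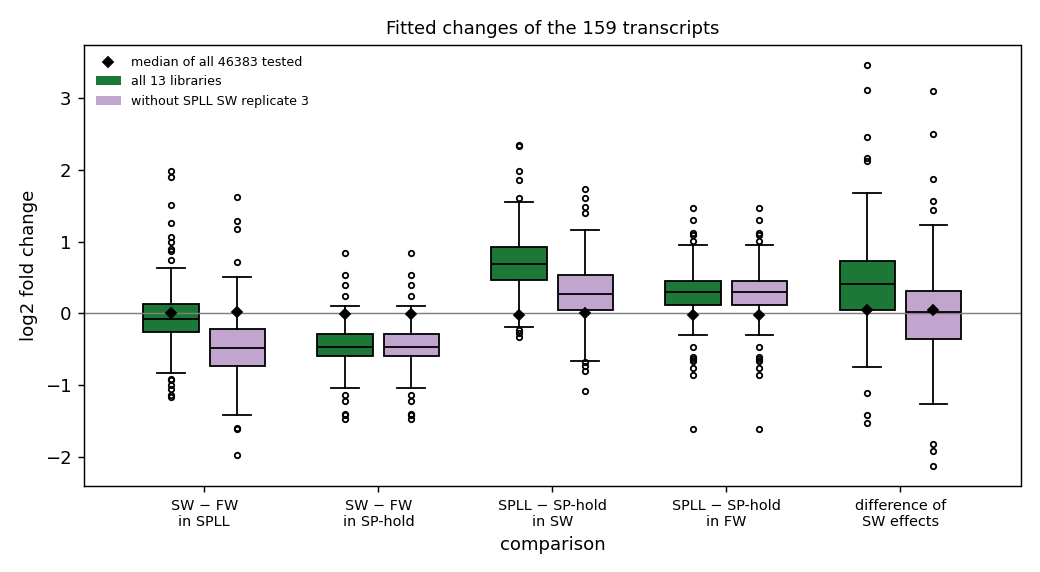
Fitted log2 fold changes (y axis) of the 159 transcripts in the 5 comparisons (x axis), with all 13 libraries (green) and without SPLL SW replicate 3 (violet), as boxes with quartiles, median and whiskers of 1.5 times the interquartile range. Diamonds give the median of all 46383 transcripts tested, close to 0 throughout. The members' median goes to -0.49 for SW over FW in SPLL, against -0.08 with all libraries, and to 0.26 for SPLL over SP-hold in SW, against 0.68 with all libraries.

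RPS18, at the head of the small subunit where it contacts the large one, was the called member with the lower p. Its transcript ENSSSAT00000147034 (318 bases, RefSeq gene LOC106588387, chromosome 27, 10786161 to 10788366) had 64.4, 45.8, 136.7 and 55.9 CPM in SPLL SW against 24.2, 31.8 and 18.3 CPM in SP-hold SW. The lowest SPLL SW library was above the highest SP-hold SW library. The log2 fold change was 1.61 ± 0.37 (SE, adjusted p = 0.0469, edgeR), and 1.16 ± 0.24 without SPLL SW replicate 3 (adjusted p = 0.0437). In freshwater it had 36.0 and 47.1 CPM in SPLL FW and 31.7, 46.5, 45.1 and 50.6 CPM in SP-hold FW, which overlap. The call was lost for 11 of the 13 libraries when each was left out (adjusted p of 0.0547 to 0.169) and held with the length correction (log2 fold change 0.89 ± 0.16, adjusted p = 0.0240). In TPM the levels were 909, 855, 1320 and 1006 in SPLL SW against 560, 430 and 387.3 in SP-hold SW.

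RPL39, one of the smallest ribosomal proteins, lines the exit tunnel of the large subunit. Its short transcript ENSSSAT00000004674 (289 bases, RefSeq symbol rl39, chromosome 5, 25069982 to 25071494) had 218, 104, 528 and 185 CPM in SPLL SW against 24.2, 67.1 and 60.6 CPM in SP-hold SW. Again all SPLL SW libraries were above all SP-hold SW libraries. The log2 fold change was 2.35 ± 0.56 (SE, adjusted p = 0.0499, edgeR), just inside the threshold, and 1.74 without SPLL SW replicate 3 (adjusted p = 0.0646). The edgeR call was also lost with the length correction (log2 fold change 1.51, adjusted p = 0.0540), with DESeq2's size factors (adjusted p = 0.0512) and without the low-count filter (adjusted p = 0.123). It held by limma (adjusted p = 0.0470) and by DESeq2 (adjusted p = 0.000236). SPLL FW fish had 56.9 and 81.9 CPM and SP-hold FW fish 76.3, 121, 125 and 149 CPM.

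The longer rpl39 transcript did not follow the shorter one. ENSSSAT00000004668, of 748 bases, had 141, 81.8, 284 and 107 CPM in SPLL SW against 270 and 312 CPM in SPLL FW, whereas the short transcript was higher in SPLL SW than in SPLL FW in all 4 libraries. The log2 fold changes of SPLL SW over SPLL FW were -0.93 ± 0.43 for the long transcript (adjusted p = 0.495, edgeR) and 1.90 ± 0.64 for the short one (adjusted p = 0.291). The interaction of photoperiod and seawater for the short transcript was 3.12 ± 0.83 (adjusted p = 0.184 by edgeR, 0.00392 by DESeq2). With the reads of both transcripts summed, the locus was 1.61 ± 0.44 higher on the log2 scale in SPLL SW over SP-hold SW (adjusted p = 0.0757, edgeR).

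Just outside the threshold were rps27 on chromosome 27 (log2 fold change 1.04, adjusted p = 0.0507), the 264-base rps29 transcript (2.33, adjusted p = 0.0552) and rpl22l1 (1.16, adjusted p = 0.0627), all by edgeR. RPL22L1 is the paralogue that in vertebrates can take the place of RPL22. Its transcript had 164, 145, 292 and 142 CPM in SPLL SW against 65.1, 110 and 74.5 CPM in SP-hold SW, without overlap. The rps29 transcript had 34.5, 14.97, 102 and 35.1 CPM in SPLL SW against 6.35, 13.6 and 7.84 CPM in SP-hold SW, a low count for a transcript at 1195 TPM.

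**Figure D5:**
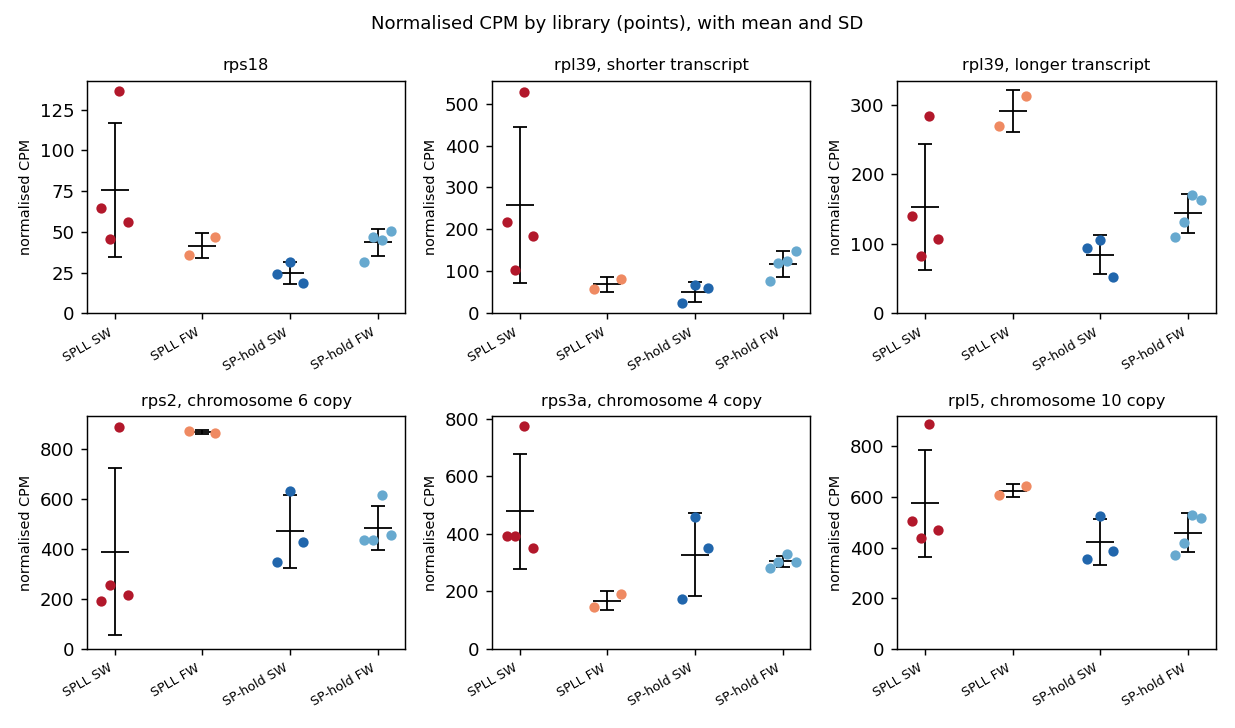
Normalised CPM (y axis, from 0) of 6 transcripts in the 4 groups (x axis), with a point per library and the mean and SD in black. The rps18 and short rpl39 transcripts are higher in SPLL SW than in SP-hold SW, the chromosome 6 rps2 transcript has 3 low SPLL SW libraries and 1 high one, and rps3a on chromosome 4 is lowest in SPLL FW.

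Whether the response to transfer differed between the photoperiod groups was tested too. Light changed at transfer in SP-hold fish only, so the effects of light and salinity cannot be told apart. The test was the interaction, (SPLL SW over SPLL FW) minus (SP-hold SW over SP-hold FW). It was above 0 for 125 of 159 members and below 0 for 34 (52.2% and 47.8% of all tested) with a median of 0.41, beside 0.04 over all tested, and no member was called by edgeR, against 0.226% of all tested (0.147% higher and 0.0798% lower). At an unadjusted p under 0.05, 9 members were above and 2 below 0, against 11.7% of all tested (6.66% and 5.03%), and DESeq2 called 1, the short rpl39 transcript, against 4.51% of all tested. The 89 other short transcripts with at least 100 CPM had a median of 0.39, and all 15 hemoglobin transcripts were above 0, with a median of 1.53 (0.87, and 14 of 15, without SPLL SW replicate 3); their part in the result was not tested. With SPLL SW replicate 2 left out, the count at an unadjusted p was 19, against 12.1% of all tested. With SP-hold SW replicate 2 left out it was 18, against 12%. With SPLL SW replicate 3 left out, 7 were above and 13 below 0, against 7.82% and 6.41% of all tested. Without SPLL SW replicate 3 the interaction's median was 0.02, with 81 members above 0 and 78 below (52.5% and 47.5% of all tested), and only the rps2 transcript above was called, lower, against 0.226% of all tested that were lower.

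The other parts of the translation machinery on the list were 30 transcripts, mostly of initiation and elongation factors. Together they held 0.857 ± 0.0625% of TPM in SPLL SW, 0.845 ± 0.0361% in SPLL FW, 0.832 ± 0.0435% in SP-hold SW and 0.778 ± 0.0863% in SP-hold FW. Among the most abundant were eef1a1l1, which brings aminoacyl-tRNA to the ribosome (1273 ± 191 TPM), rack1, a scaffold on the small subunit (730 ± 121 TPM), eef2b, the translocation factor (603 ± 105 TPM), and faua (586 ± 93.3 TPM). In SPLL SW over SP-hold SW, 1 of the 30 was called higher and none lower: eif1axa, which helps to find the start codon, with a log2 fold change of 0.98 ± 0.14 (adjusted p = 0.0109, edgeR), and 0.90 ± 0.13 without SPLL SW replicate 3 (adjusted p = 0.0169). Over all tested, 3.04% were called (1.42% higher). The list's median was 0.47 in that comparison (0.21 without SPLL SW replicate 3). In the other 4 comparisons none of the 30 was called, with medians of 0.36 for SPLL FW over SP-hold FW, -0.09 for SPLL SW over SPLL FW, -0.22 for SP-hold SW over SP-hold FW and 0.15 for the interaction. Without SPLL SW replicate 3 the median was -0.32 for SPLL SW over SPLL FW (27 of 30 below 0), and the interaction's median turned to -0.06 (21 of 30 below 0).

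Of 6 transcripts for ribosome assembly, 1 was called, higher, in SPLL SW over SP-hold SW, against 3.04% of all tested (1.42% higher). MRTO4, which takes part in making the large subunit and is related to RPLP0, was higher in SPLL SW than in SP-hold SW by a log2 fold change of 0.55 ± 0.12 (adjusted p = 0.0440, edgeR), and 0.56 ± 0.13 without SPLL SW replicate 3, where the call was lost (adjusted p = 0.0623). Nucleolin (ncl), the nucleolar protein of ribosomal RNA transcription and processing, was the most abundant of the list (212 ± 57.0 TPM) and had a log2 fold change of -0.13 ± 0.11 in that comparison (adjusted p = 0.643, edgeR). The list's median was 0.54 (0.44 without SPLL SW replicate 3), and ddx21, npm1a, snu13b and nsa2 were not called in any comparison.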

How the data were processed

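RNA of 13 saccus vasculosus samples was sequenced by the authors (TruSeq stranded mRNA, single-end reads of 100 bases), trimmed with Cutadapt and quantified per transcript with Salmon 1.1.0. The authors deposited, per transcript and library, expected counts (estimated reads, which need not be whole) and TPM, and left out 3 libraries with low read counts. Transcripts were those of the Ssal_v3.1 assembly, with duplicate transcripts kept in the index. The expected counts, rounded to whole reads, were tested with edgeR 4.0.16 (TMM, glmQLFit and glmQLFTest on 4 group means, 9 residual degrees of freedom) after a filter on a median of 0.77 normalised CPM, which left 46383 transcripts. Standard errors are the log2 fold change divided by the root of F. P-values were adjusted over all transcripts tested, with thresholds of 0.01 for the 4-group test and 0.05 for contrasts. SVs came from 2 fish per duplicate tank, so libraries of the larger groups share tanks. The labels do not assign libraries to tanks, a tank term could not be fitted, and p-values measure the spread between these fish. Alternatives were DESeq2 1.42.0 (also its size factors in edgeR), limma 3.58.1 on log2(TPM + 1), no filter, a replicate block, a length correction (lowess of log2 ratio on length, span 0.3, as offset), reads summed per locus or family, and each library left out in turn. A length correction without SPLL SW replicate 3 was chosen after seeing the data. The fits were tested on simulated data. The members, lists and tests were chosen with earlier results of these data known. Named were, by rule, called members, the 10 most abundant, the 5 most and 5 least variable members and 14 members of known role. So were the 4 families with the highest and the 4 with the lowest share of the most abundant locus. By the same rule, genes of the translation and assembly lists were named. Other genes, among them the least abundant families, further isoforms and the copies of rps3a, rpl9 and rpsa, were chosen after their values were seen. Results of some members and list genes are not reported here. Library totals of 15346418 to 26502552 reads limit the precision of low counts.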

Additional observations from a re-analysis of the deposited data

Results flagged for a closer look

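In the groups of 4 libraries, 100 checks of an outlying library were made on the shares and named members, of which chance picks out about 1 in 20, and 18 libraries' values stood far from the other 3 of their group. SPLL SW replicate 3 accounted for 17 of them, all as the highest library of SPLL SW. In normalised CPM these were, in the large subunit, rpl27 (631), rpl30 (1393), rpl12 (1313), rpl23a (743), rpl35 (621, the chromosome 20 copy), rpl32 (286), both rpl8 copies (1392 and 1033), rpl7a (390), rpl5 (891), rplp1 (825) and rpl22l1 (292). In the small subunit they were rps9 (105), rps3 (609), rpsa (454), rps19 (476) and rps4x (552). The ratio of large-subunit to small-subunit TPM was lowest, far from the other 3, in SPLL SW replicate 2 (1.49).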

How the results depend on the processing

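The number of members called depended on the tool and on single libraries. DESeq2 called 4 members in the 4-group test (7.43% of all tested), 1 for seawater in SP-hold (2.95%) and 4 for seawater in SPLL (4.93%). It called 32 for SPLL against SP-hold in seawater (11.8%) and 1 in the interaction (4.51%). In the same order edgeR called 0, 0, 0, 2 and 0 (0.0625, 0.0841, 0.269, 3.04 and 0.226% of all tested). For SPLL against SP-hold in seawater, edgeR called 1 with DESeq2's size factors (2.91% of all tested) and 0 without the filter (0.18%). It called 4 with the length correction (3 higher, 1 lower, against 2.73%). It called 1 when reads were summed per locus (3.05%) or per family (3.06%). With the length correction and without SPLL SW replicate 3 it called 8 (1 higher and 7 lower, against 2.03%). The length correction called 1 lower for seawater in SPLL (0.295% of all tested), or 7, all lower, without that library (0.793%), and 1 higher in the interaction (0.304%), or 1 higher and 4 lower, 5 in all, without it (0.696%). Limma called 1 higher for seawater in SPLL (0.0172%) and 3, all higher, for SPLL against SP-hold in seawater (0.261%). Leaving out 1 library gave 0 to 6 calls for seawater in SPLL (1.1% of all tested at 6) and 0 to 1 in the interaction (0.63% at 1). For SPLL against SP-hold in seawater it gave 0 to 7 (7 without SPLL SW replicate 2, against 2.89% of all tested). The call of rpl39 was lost under every library left out except SPLL SW replicate 2, and that of rps18 under all but SPLL SW replicates 2 and 3. A replicate block called 0 members for SPLL against SP-hold in seawater, against 0.338% of all tested. The labels do not say what the replicate numbers stand for. Deviations of same-numbered libraries correlated between -0.04 and 0.09, and those of other pairs between -0.09 and 0.06. Such correlations cannot show whether the numbers follow tanks.

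The members' median kept its sign in SP-hold seawater over freshwater and in both SPLL against SP-hold comparisons under every alternative. For SPLL against SP-hold in seawater it was 0.24 with the length correction, 0.0073 with that correction and without SPLL SW replicate 3, and 0.26 to 0.97 with 1 library left out. The ranges with 1 library left out were -0.73 to -0.29 for seawater in SP-hold, -0.49 to 0.10 for seawater in SPLL, 0.18 to 0.37 for SPLL against SP-hold in freshwater and 0.02 to 0.67 for the interaction. On log2(TPM + 1) the median of all transcripts itself shifted, to 0.21 and 0.14 for seawater in SP-hold and in SPLL and to -0.14 and -0.21 for SPLL against SP-hold in freshwater and in seawater. The members' medians there were -0.24, 0.06, 0.06 and 0.32.

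By assigned reads the members' mean share was 4.07% in SPLL SW, 4.00% in SPLL FW, 2.87% in SP-hold SW and 3.62% in SP-hold FW, and without hemoglobins and ependymin in the total it was 13.6% in SPLL FW and 10.6% in SP-hold SW. With 1 library left out the TPM share was 11.7 to 13.7% in SPLL SW, 11.7 to 11.9% in SPLL FW, 9.41 to 9.65% in SP-hold SW and 10.6 to 11.7% in SP-hold FW. By reads the median share of the top locus was 55.1%, and it was 77.2% for rpl10a, 20.1% for rps27 and 55.8% for rpl8. The cause of these changes was not tested beyond the values given.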

Other observations

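Some families divided their output between copies differently from fish to fish within a group. For rpl9, a large-subunit protein, the more abundant locus gave 60.6, 69.0, 83.7 and 66.7% of the family's TPM in SPLL SW, 52.9 and 83.5% in SPLL FW, 74.9, 71.7 and 76.7% in SP-hold SW, and 48.6, 82.2, 82.2 and 83.4% in SP-hold FW. For rpsa the chromosome 2 copy gave 50.4, 58.0, 48.0 and 54.6% in SPLL SW, 47.2 and 53.9% in SPLL FW, 36.5, 60.4 and 64.7% in SP-hold SW, and 56.4, 64.3, 63.8 and 56.9% in SP-hold FW. For rpl9 the ranges of all groups overlap. Both rpl9 loci lay on unplaced scaffolds, and no protein-coding RefSeq gene was matched to either. Whether they are separate genes was not tested. For rpsa both SPLL FW values lie below all SP-hold FW values, while the ranges of the other groups compared overlap; this difference was not tested.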
